A study of Mus musculus with 24 samples.

Results

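The insulin-like growth factor (IGF) family was followed as 10 genes chosen by name: the ligands Igf1 and Igf2, the receptors Igf1r and Igf2r, and the binding proteins Igfbp2, Igfbp3, Igfbp4, Igfbp5, Igfbp6 and Igfbp7. They are 10 of the 55291 gene names in the count files, and 9 of them were among the 16258 genes with enough reads to be tested. Igf2 was not, with at most 3 reads in any library. The cells were cultured lung fibroblasts of C57BL/6 mice aged 4 to 8 weeks, either wild type (WT) or labelled TLR4-/-, which in the design lack Toll-like receptor 4. Each genotype was isolated from a pool of 3 to 4 lungs and used at passages 3 to 6. After a night in reduced serum medium the cells were given PBS, 1 μg/mL recombinant mouse cold-inducible RNA-binding protein (rmCIRP), 2 ng/mL recombinant mouse transforming growth factor β1 (rmTGF-β1), or both, for 24 h, and total RNA of each of these 8 conditions was sequenced in 3 libraries. Nothing in the labels ties the 3 libraries of a condition to separate pools of mice, so a p-value here measures the spread between these libraries, which may be technical.

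IGF1 and IGF2 are secreted growth factors. They act through IGF1R, a receptor tyrosine kinase that drives growth and survival through the PI3K-AKT and MAPK cascades, while IGF2R, the cation-independent mannose-6-phosphate receptor, takes up IGF2 and sends it to lysosomes without a kinase signal. The secreted IGF-binding proteins hold the ligands with high affinity, IGFBP7 being the exception with low affinity, and can block, store or carry them, until proteases such as PAPP-A release them. In the lung, mesenchymal cells and macrophages make IGF1, and IGFBP3 and IGFBP5 are known for their association with fibrosis and extracellular matrix.

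Between 29853346 and 39664606 reads per library were counted on genes. Tlr4 mRNA was not lower in the libraries labelled TLR4-/- (log2 difference with PBS 0.25, SE 0.06, adjusted p = 0.00123 in edgeR). A gene-level count cannot tell exons apart, and libraries are named by their label throughout. The genotypes also differed in sex-linked and macrophage transcripts. Xist, expressed in female cells, had 4403 to 6201 reads in libraries labelled TLR4-/- and at most 3 in WT libraries. The summed normalized count of 13 macrophage markers was 90889.5 to 99113 in WT and 345854 to 394752 in labelled TLR4-/- libraries with PBS, and all 13 were higher in the latter (median log2 difference 2.19). The 10 fibroblast markers summed to 807075 to 866295 and to 766366 to 859171, and the 7 epithelial markers to no more than 89.5 and 239. In bulk RNA, fewer cells of a type and less RNA per cell cannot be told apart. The third library labelled TLR4-/- with both agents stood apart from its group (chi-square per degree of freedom 45.7 against the first and 31.3 against the second library), as did, less so, the third with rmTGF-β1 (11.9 and 15.6). Called values of the family that rest on them are given with and without this pair.

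To compare genes, normalized counts (reads scaled with the size factors of DESeq2) were divided by exon length. In WT cells with PBS, Igfbp7 was first, with 17771 ± 615 normalized counts per kb of exon (SD, n = 3). Igfbp5 followed with 2167 ± 124, Igfbp4 with 1715 ± 142, Igfbp2 with 820.0 ± 86.2, Igf1 with 734 ± 44.4, Igf2r with 644 ± 4.48, Igfbp6 with 453 ± 10.96, Igfbp3 with 302 ± 92.7 and Igf1r with 239.5 ± 10.7. The libraries of Igfbp2 and Igf1 overlapped in this order, as did those of Igfbp3 and Igf1r. With PBS in libraries labelled TLR4-/-, Igfbp7 (17761 ± 159.6) and Igfbp5 (1098 ± 152) were again at the top. Igf2r (736 ± 59.2), Igf1 (686 ± 24.8) and Igfbp4 (681 ± 51.2) then overlapped, Igfbp6 had 499.7 ± 12.8, Igfbp2 had 239 ± 31.3, Igf1r 207 ± 0.883 and Igfbp3, the last, 159 ± 16.6. Igfbp2 and Igfbp4 thus held lower places in the libraries labelled TLR4-/-.

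**Figure D1:**
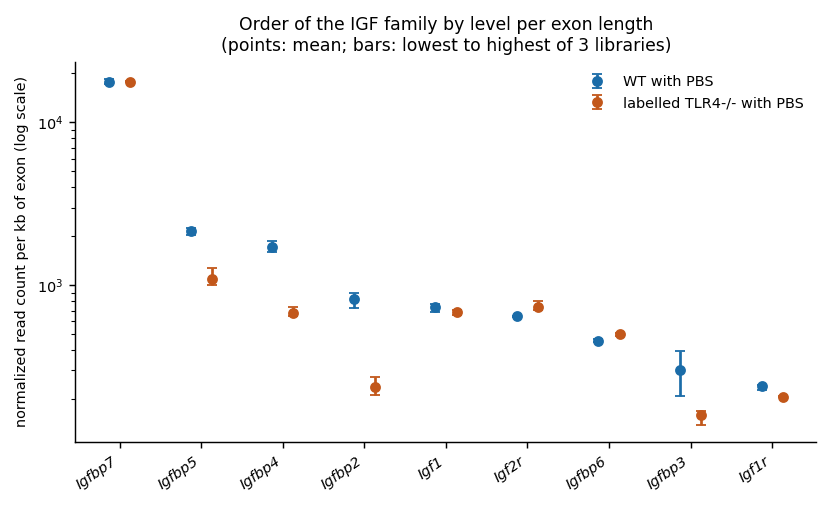
Level of the 9 tested genes in normalized read counts per kb of exon (log scale) with PBS, as the mean of 3 libraries with bars from the lowest to the highest library, WT in blue and labelled TLR4-/- in orange. Igfbp7 stands above all others in both genotypes, at 17771 and 17761, and Igfbp2 has the widest gap between genotypes, at 820.0 against 239.

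Igf1 was the only ligand with appreciable mRNA, and it fell with rmCIRP in WT cells. Its normalized counts in the 3 WT libraries were 6787, 7643 and 7389.9 with PBS and 5092, 4522 and 4788 with rmCIRP. With rmTGF-β1 they were 7894, 6953 and 7138, and with both agents 4701, 4553 and 4897. Every WT library with rmCIRP, alone or combined, was below every one without it. On the log2 scale rmCIRP against PBS gave -0.60 (SE 0.06, adjusted p = 3.54e-08 in edgeR), and -0.64 (SE 0.06, adjusted p = 1.7e-08) was found for both against rmTGF-β1. Libraries labelled TLR4-/- had counts of 6929, 6951 and 6516 with PBS, and 6878, 6913 and 7104 with rmCIRP. Here the 2 groups overlapped, with a log2 fold change of 0.04 (95% interval -0.07 to 0.16). The genotypes differed in this response by 0.65 (SE 0.08, adjusted p = 4.85e-06 in edgeR). Marker sums of several cell types moved in the same direction as Igf1 in WT cells. Of the 10 fibroblast markers 6 were lower and 2 higher with rmCIRP, and their sum went from 807075 to 866295 with PBS to 681665 to 726165. Of the macrophage markers 9 of 13 had lower and 4 higher values, and their summed count went from 90889.5 to 99113 with PBS to 79769 to 85058. The 3 smooth muscle markers were also lower, going from a sum of 81384 to 87141 to one of 53239 to 58388. Their part in the fall of Igf1 was not tested.

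In libraries labelled TLR4-/-, Igf1 had 6056, 6551 and 5645 normalized counts with rmTGF-β1 and 6368, 5707 and 5845 with both agents. The rmTGF-β1 libraries overlapped those with PBS, with 2 of 3 below all of them (log2 fold change -0.15, SE 0.06, adjusted p = 0.0752 in edgeR). This call was lost without either of the first 2 PBS libraries (adjusted p = 0.18 and 0.195) and without rmTGF-β1 library 1 or 3 (0.139 and 0.334). It was lost too without the 2 outlying libraries (log2 fold change -0.10, adjusted p = 0.268). Both agents against rmCIRP alone gave -0.23 (SE 0.06, adjusted p = 0.00706), and -0.21 (adjusted p = 0.0126) without those libraries. Igf1 did not pass the test between genotypes with PBS (log2 difference -0.10, 95% interval -0.22 to 0.01), while labelled TLR4-/- libraries were higher with rmCIRP (0.54, SE 0.06, adjusted p = 6.02e-08) and with both (0.35, SE 0.06, adjusted p = 4.06e-05), and lower with rmTGF-β1 (-0.26, SE 0.06, adjusted p = 0.001). Without the outlying pair the values with both and with rmTGF-β1 were 0.36 and -0.21 (adjusted p = 1.42e-05 and 0.00578). Igf2, the fetal ligand, had 0 to 3 reads in every library and no fold change is given. Its antisense neighbour Igf2os had at most 2.

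**Figure D2:**
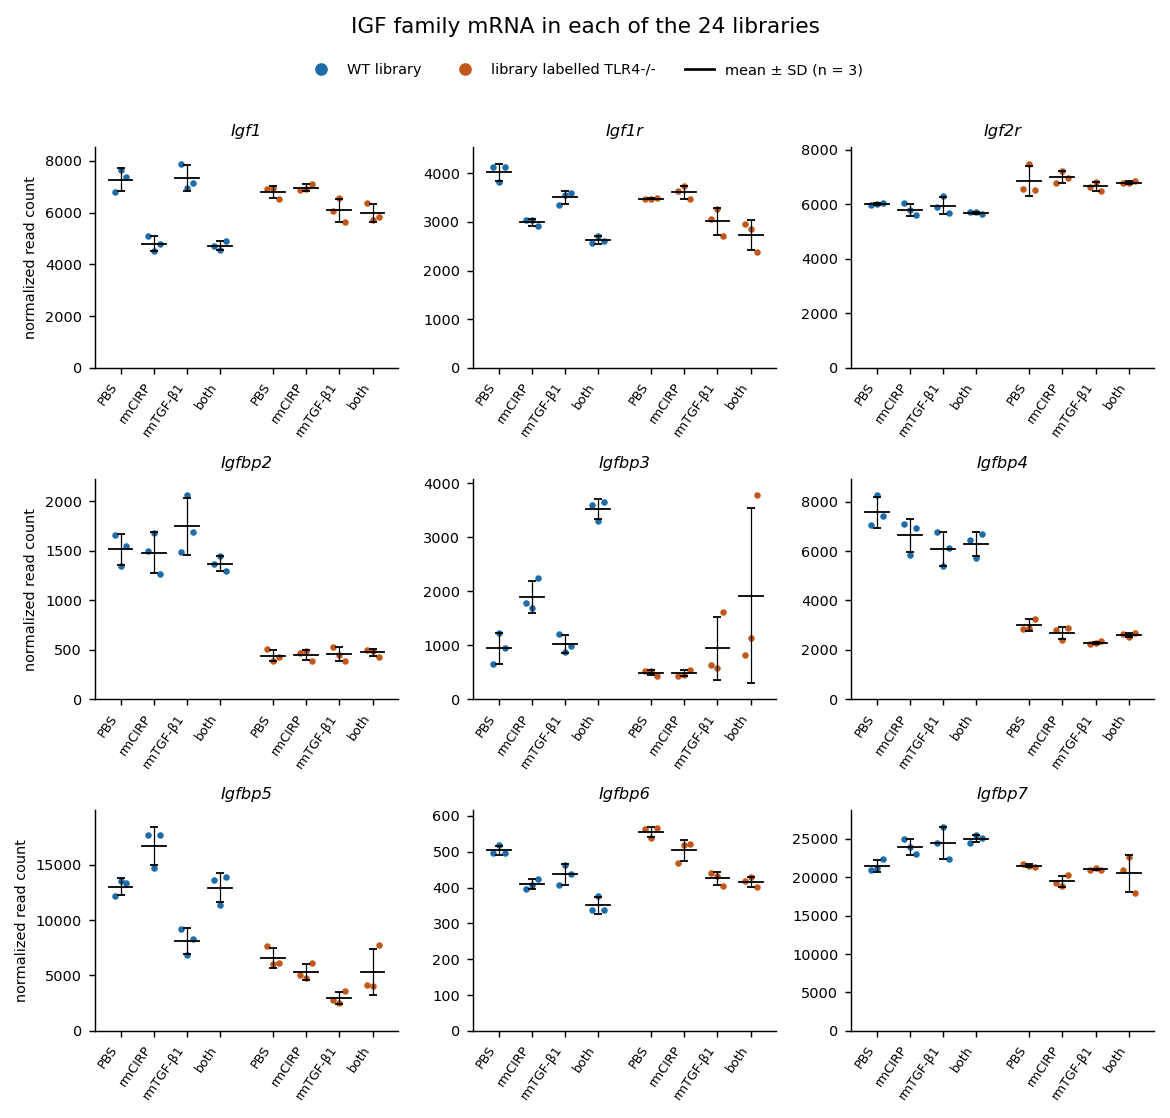
Normalized read counts of the 9 tested genes in every library, by treatment, with WT in blue, labelled TLR4-/- in orange and black bars for the mean ± SD (n = 3). With rmCIRP alone, Igf1 and Igf1r are lower than with PBS in WT libraries and overlap PBS in labelled TLR4-/- libraries, Igfbp3 reaches 3305 to 3658 in WT libraries with both agents, and 1 library labelled TLR4-/- with both agents stands at 3785.

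Igf1r, the signaling receptor, fell with each agent in WT cells. The WT libraries had 4126, 3815 and 4124 normalized counts with PBS and 3035, 3032 and 2909 given rmCIRP. After rmTGF-β1 they were 3347, 3563 and 3602, and after both agents 2561, 2711 and 2611. No 2 of these 4 groups overlapped, with PBS highest and the combination lowest. The log2 fold change with rmCIRP was -0.43 against PBS (SE 0.06, adjusted p = 1.4e-05 in edgeR) and -0.42 on top of rmTGF-β1 (SE 0.06, adjusted p = 2.41e-05). That with rmTGF-β1 was smaller, -0.20 against PBS (SE 0.06, adjusted p = 0.0504) and -0.19 on top of rmCIRP (SE 0.07, adjusted p = 0.0508). The rmTGF-β1 calls were less stable: the first was lost without WT PBS library 1 or 3 (adjusted p = 0.184 and 0.16) or rmTGF-β1 library 1 or 2 (0.164 and 0.114), and the second without rmCIRP library 1 or 2 (0.118 and 0.158) or combination library 1 or 3 (0.161 and 0.117).

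In libraries labelled TLR4-/-, Igf1r had 3467, 3480.0 and 3496 normalized counts with PBS and 3643, 3729.7 and 3463 with rmCIRP, groups that overlapped, with a log2 fold change of 0.06 (95% interval -0.07 to 0.18). The response to rmCIRP differed between genotypes by 0.49 (SE 0.09, adjusted p = 0.000346 in edgeR). With rmTGF-β1 the counts were 3050.5, 3265 and 2721, all below PBS (log2 fold change -0.20, SE 0.06, adjusted p = 0.0316), and the call was lost without the third rmTGF-β1 library (-0.13, adjusted p = 0.208) but held without both outlying libraries (-0.13, adjusted p = 0.0385). With both agents they were 2953, 2849 and 2373, which against rmCIRP is -0.41 on the log2 scale (SE 0.06, adjusted p = 0.000104), and -0.32 (adjusted p = 9.9e-06) without the 2 outlying libraries. Both agents against rmTGF-β1 did not pass with all libraries. It did without the third rmTGF-β1 library (-0.22, adjusted p = 0.0466) or the first library with both (-0.21, adjusted p = 0.0565), and with no filter on low counts (-0.14, adjusted p = 0.0922). Against WT, the labelled TLR4-/- level was lower with PBS (-0.21, SE 0.06, adjusted p = 0.0108) and with rmTGF-β1 (-0.21, SE 0.06, adjusted p = 0.0107, and -0.14, adjusted p = 0.0114, without the outlying pair), and higher with rmCIRP (0.28, SE 0.06, adjusted p = 0.000828). With both agents it was not called with all libraries and was called higher without the third library with both (0.15, adjusted p = 0.0281).

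Igf2r, the scavenging receptor, was the steadiest gene of the group. Its condition means spanned a factor of 1.23, and none of the 8 treatment comparisons within a genotype passed the test. It was higher in libraries labelled TLR4-/- in all 4 treatments, by 0.19 with PBS (SE 0.04, adjusted p = 0.00166 in edgeR), 0.28 with rmCIRP (SE 0.04, adjusted p = 1.72e-05), 0.17 with rmTGF-β1 (SE 0.04, adjusted p = 0.00416) and 0.27 with both (SE 0.04, adjusted p = 3.24e-05) on the log2 scale. Without the outlying pair the last 2 were 0.19 and 0.26 (adjusted p = 0.00294 and 6.84e-05). With PBS the counts were 5954, 6000.2 and 6037 in WT and 6538, 7488 and 6528 in labelled TLR4-/- libraries, with no overlap. The genotype difference in its rmCIRP response did not pass with all libraries and passed without the second labelled TLR4-/- library with PBS, its highest (0.16, adjusted p = 0.0412). Airn, the antisense transcript that starts within Igf2r, had 35 to 80 reads per library, and whether reads were counted by strand is not given in the sources used here.

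Igfbp2, Igfbp3, Igfbp4 and Igfbp5 showed the widest contrasts among the 9 tested genes, with condition means spanning factors of 3.32 to 7.29. Igfbp6 (1.59) and Igfbp7 (1.29) did not stand out from Igf1 (1.55). The upstream sequences of 3 of them are printed, of Igfbp3, which had the widest range over conditions, and of Igfbp2 and Igfbp4, which were lower in every labelled TLR4-/- library than in any WT library. Each is the 250 bases before a start of transcription in RefSeq (GRCm38.p6), 5′ to 3′ on the strand of the gene. The start taken was the first by position whose window overlaps no exon of GENCODE M21. Capitals mark a match, on either strand, to any of 5 motifs searched: CCAAT itself, the bases TATAAA of a promoter's core box, the GC box as GGGCGG, the AP-1 site as TGANTCA and the NF-κB site as GGGANNTTCC. None of the matches overlaps another.
Igfbp3, chr11:7213924-7214173, minus strand: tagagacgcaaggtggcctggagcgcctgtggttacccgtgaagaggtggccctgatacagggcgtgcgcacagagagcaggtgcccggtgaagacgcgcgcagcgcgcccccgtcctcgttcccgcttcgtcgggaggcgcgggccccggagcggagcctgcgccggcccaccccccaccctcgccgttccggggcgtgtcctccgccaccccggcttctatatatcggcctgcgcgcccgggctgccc
Igfbp2, chr1:72824230-72824479, plus strand: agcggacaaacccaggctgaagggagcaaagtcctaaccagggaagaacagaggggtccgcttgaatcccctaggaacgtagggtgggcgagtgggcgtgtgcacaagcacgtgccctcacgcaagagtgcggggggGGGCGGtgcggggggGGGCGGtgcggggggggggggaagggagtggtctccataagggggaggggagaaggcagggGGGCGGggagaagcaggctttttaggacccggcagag
Igfbp4, chr11:99040994-99041243, plus strand: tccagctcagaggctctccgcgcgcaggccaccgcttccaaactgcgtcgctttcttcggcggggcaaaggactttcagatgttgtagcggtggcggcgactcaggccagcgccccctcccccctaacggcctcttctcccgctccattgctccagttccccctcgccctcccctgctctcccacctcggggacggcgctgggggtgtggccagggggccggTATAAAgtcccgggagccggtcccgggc
The Igfbp2 window held 3 GC boxes, a motif found in 32.7% of 32817 windows of this length over all genes, chosen without regard to exons. That of Igfbp4 held the letters TATAAA 23 to 28 bases before the start, found in 12.4%. The window of Igfbp3, 73.2% G and C, held none of the motifs as written. Only exact letters were searched, and variants of the core box, such as the tatatat near the end of this window, were not. CCAAT (33.8% of windows), AP-1 sites (6.75%) and NF-κB sites (1.21%) were in none of the 3, which says only that these letters are not in these windows.

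Igfbp3, the main carrier of IGFs in serum, had its highest levels in WT cells given both agents. The normalized counts in WT libraries were 653, 1234 and 945 with PBS and 1778, 1689 and 2240.5 given rmCIRP. rmTGF-β1 alone gave 1204, 877 and 989 and the combination 3609, 3305 and 3658. All libraries with rmCIRP lay above all without it, and those with both above those with rmCIRP alone. rmCIRP against PBS gave 1.01 on the log2 scale (SE 0.40, adjusted p = 0.0497 in edgeR). The value was 1.78 (SE 0.39, adjusted p = 0.00104) for both against rmTGF-β1. The first call was lost without WT PBS library 1 (log2 fold change 0.81, adjusted p = 0.175) or 3 (adjusted p = 0.106), or rmCIRP library 3 (0.142). Both agents against rmCIRP alone gave 0.88 (SE 0.37, adjusted p = 0.122), which passed when only the 6 libraries compared were fitted (adjusted p = 1.5e-06). The all-library fit shares 1 estimate of the spread, to which all 24 libraries contribute.

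In libraries labelled TLR4-/-, Igfbp3 had 523, 531 and 437 normalized counts with PBS and 441, 458 and 549.5 with rmCIRP, which overlapped. With rmTGF-β1 the counts were 628, 589.8 and 1616, and with both agents 829, 1144 and 3785. In both of these conditions the third library was far above the other 2. Both agents against rmCIRP gave 1.98 on the log2 scale (SE 0.42, adjusted p = 0.00163 in edgeR), which was 1.03 (SE 0.19, adjusted p = 0.00028) without the third libraries. In the same comparison 5 of 6 endothelial markers were called higher (median log2 fold change 0.59, sums of 793 to 1481 against 701 to 721) and all 3 smooth muscle markers lower, and their part in this value was not tested. Both against rmTGF-β1 gave 1.00 (SE 0.39, adjusted p = 0.187), and 0.70 (SE 0.20, adjusted p = 0.0729) without them. Without library 3 with both alone it was 0.05 (SE 0.29, adjusted p = 0.986), with the high rmTGF-β1 library 3 (1616) still in the comparison. The size of the value thus depended on which of these libraries were kept. It passed without the third rmTGF-β1 library alone (1.64, adjusted p = 0.0253) or the first library with both (1.36, adjusted p = 0.0212). For rmTGF-β1 against PBS the value was 0.95 (SE 0.43, adjusted p = 0.143), and 0.30 (SE 0.20, adjusted p = 0.357) without them, and it passed without the second rmTGF-β1 library (1.19, adjusted p = 0.0778). The genotype difference in the rmCIRP response, -1.04 (95% interval -2.23 to 0.14, adjusted p = 0.228), did not pass in the fit of all libraries and did when only the 12 libraries it concerns were fitted (-1.05, adjusted p = 0.00265).

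Igfbp3 was lower in libraries labelled TLR4-/- than in WT with rmCIRP (log2 difference -1.97, SE 0.42, adjusted p = 0.00041 in edgeR). With PBS the difference was -0.93 (SE 0.43, adjusted p = 0.0947), although the libraries did not overlap. That call was lost in DESeq2 (adjusted p = 0.124) and with a filter at a mean count of 10 (0.103). It was lost also without WT PBS library 2 (-0.67, adjusted p = 0.315) or 3 (0.146), or labelled TLR4-/- library 1 (0.154), 2 (0.14) or 3 (0.225). With both agents the difference was -0.88 (SE 0.37, adjusted p = 0.0589), and -1.83 (SE 0.17, adjusted p = 1.51e-09) without the third libraries. It was lost without WT library 1 (adjusted p = 0.114) or 3 (0.115) and without labelled TLR4-/- library 1 (-0.52, adjusted p = 0.256) or 2 (-0.61, adjusted p = 0.24), in DESeq2 (0.146) and with only the 6 libraries compared (0.2). With rmTGF-β1 the libraries overlapped and the difference of -0.10 (SE 0.40, adjusted p = 0.878) was not called. It changed direction, up to 0.14, without WT library 1 or labelled TLR4-/- library 1 or 2. Without the 2 outlying libraries, left out after seeing the data, it was -0.74 (adjusted p = 0.00256).

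Igfbp5, a binding protein held in the extracellular matrix, fell with rmTGF-β1 in both genotypes. In WT libraries the normalized counts were 12166, 13553 and 13317 with PBS and 17698, 14688 and 17674 given rmCIRP. The counts after rmTGF-β1 were 9223, 6880.3 and 8264, and those after both 13570.1, 11385 and 13832. Every rmTGF-β1 library was below every other WT library, every rmCIRP library above, and the combination overlapped PBS. The log2 fold change with rmTGF-β1 was -0.68 (SE 0.18, adjusted p = 0.0196 in edgeR), lost only without the second rmTGF-β1 library among the libraries left out in turn (-0.58, adjusted p = 0.12). Both agents against rmTGF-β1 gave 0.67 (SE 0.18, adjusted p = 0.00566). rmCIRP alone against PBS gave 0.35 (SE 0.18, adjusted p = 0.127) in the fit of all libraries. With no filter on low counts the fold change was similar, at 0.37, but its SE fell to 0.05 and it passed (adjusted p = 8.44e-14). It also passed when only the 6 libraries compared were fitted (0.37, adjusted p = 0.000594) or the second rmCIRP library was left out (0.45, adjusted p = 0.0901). In the same way both agents against rmCIRP gave -0.37 (SE 0.18, adjusted p = 0.177) and passed in the 6 libraries alone (adjusted p = 0.00184).

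In libraries labelled TLR4-/-, Igfbp5 had 7647, 6004 and 6133 normalized counts with PBS and 5011, 4813 and 6132 given rmCIRP. After rmTGF-β1 they were 2801, 2551 and 3565, and after both agents 4149, 4076 and 7708. The rmTGF-β1 libraries were again lowest, without overlap, and the third library with both agents was the highest of the 12. The log2 fold change with rmTGF-β1 was -1.14 (SE 0.18, adjusted p = 0.000134 in edgeR), and -1.29 without the third libraries (adjusted p = 8.35e-08). Both against rmTGF-β1 gave 0.83 (SE 0.18, adjusted p = 0.069) and 0.61 (adjusted p = 0.0176) without that pair. The call was lost with only the 6 libraries compared (adjusted p = 0.679), without rmTGF-β1 library 1 (adjusted p = 0.369) or 2 (0.171), and without the third library with both (0.46, adjusted p = 0.284). Both against rmCIRP was not called with all libraries (-0.008, 95% interval -0.36 to 0.35, adjusted p = 0.985). It was called without the third library with both (-0.37, adjusted p = 0.0616). It changed direction, up to 0.15, without library 1 or 2 with both or rmCIRP library 3. With rmCIRP the value was -0.31 (95% interval -0.66 to 0.05). The genotypes differed in the rmCIRP response by -0.66 (SE 0.25, adjusted p = 0.0621). This was lost without WT PBS library 1 (adjusted p = 0.111), WT rmCIRP library 1 (0.12) or 3 (0.111), labelled TLR4-/- PBS library 1 (0.154) or labelled TLR4-/- rmCIRP library 1 (0.112) or 2 (0.123). The difference between genotypes in the rmTGF-β1 response was -0.46 (95% interval -0.96 to 0.04, adjusted p = 0.567), and -0.61 (adjusted p = 0.0868) without the third libraries. Against WT, libraries labelled TLR4-/- were lower, with log2 differences of -0.98 with PBS (SE 0.18, adjusted p = 0.000129), -1.64 with rmCIRP (SE 0.18, adjusted p = 8.79e-08), -1.44 with rmTGF-β1 (SE 0.18, adjusted p = 1.1e-06) and -1.28 with both (SE 0.18, adjusted p = 3.63e-06). Without the outlying pair the last 2 were -1.59 and -1.65 (adjusted p = 1.14e-10 and 2.95e-11).

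Igfbp4, an inhibitory binding protein and the main substrate of PAPP-A, was lower in all 12 libraries labelled TLR4-/- than in any WT library. In WT it had 7033, 8263 and 7421 normalized counts with PBS and 7088, 5859 and 6938 given rmCIRP. rmTGF-β1 alone gave 6757, 5374 and 6117 and the combination 6459, 5738 and 6671. In labelled TLR4-/- libraries it had 2863, 2889.8 and 3267 with PBS and 2240.05 to 2868 in the 9 others. The genotype difference was -1.34 with PBS (SE 0.09, adjusted p = 1.36e-11 in edgeR), -1.29 with rmCIRP (SE 0.09, adjusted p = 1.73e-11), -1.41 with rmTGF-β1 (SE 0.09, adjusted p = 6.01e-12) and -1.26 with both (SE 0.09, adjusted p = 2.86e-11) on the log2 scale. Without the outlying pair the last 2 were -1.42 and -1.28 (adjusted p = 8.01e-12 and 3.65e-11). rmTGF-β1 lowered it in both genotypes. It changed by -0.32 in WT on the log2 scale (SE 0.08, adjusted p = 0.0195), lost without WT PBS library 2 (-0.24, adjusted p = 0.125) or rmTGF-β1 library 2 (-0.24, adjusted p = 0.135). In labelled TLR4-/- libraries it was -0.39 (SE 0.09, adjusted p = 0.00304), and -0.41 (adjusted p = 0.00424) without that pair. The WT groups with PBS and rmCIRP overlapped, and the called value of -0.20 (SE 0.08, adjusted p = 0.0692) was lost without PBS library 2 (-0.12, adjusted p = 0.325) or rmCIRP library 2 (-0.11, adjusted p = 0.375).

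Igfbp2, whose protein binds IGF2 in preference to IGF1, had the largest genotype difference with PBS among the 10 genes. The normalized counts were 1655, 1342 and 1547 in WT and 505, 392 and 426 in labelled TLR4-/- libraries with PBS, and over all treatments 1263 to 2062 and 386 to 531. The log2 difference was -1.78 with PBS (SE 0.13, adjusted p = 1.74e-10 in edgeR), -1.71 with rmCIRP (SE 0.13, adjusted p = 2.1e-10), -1.93 with rmTGF-β1 (SE 0.13, adjusted p = 3.07e-11) and -1.52 with both (SE 0.13, adjusted p = 1.66e-09). Without the outlying pair the last 2 were -1.82 and -1.46 (adjusted p = 4.06e-11 and 1.9e-09). Of the 8 treatment comparisons 1 passed: in WT cells both agents gave 1369, 1447 and 1292 and rmTGF-β1 alone 1489.8, 2062 and 1688, with no overlap (log2 fold change -0.36, SE 0.12, adjusted p = 0.0247). Without the second rmTGF-β1 library, the highest, it was -0.23 (adjusted p = 0.181). The 3 smooth muscle markers summed to 81384 to 87141 in WT and 53550 to 56571 in labelled TLR4-/- libraries with PBS, with 2 called lower and 1 higher. Of 6 endothelial markers 4 were lower and 1 higher in the latter (median log2 difference -1.35), and all libraries of the genotypes differed in sex-linked and macrophage transcripts as well as in label. These cannot be told apart for Igfbp2, Igfbp4 or any other gene.

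Igfbp6, which prefers IGF2, fell with each agent in WT cells. In WT it had 497, 518 and 498 normalized counts with PBS and 396, 407 and 424 given rmCIRP. The counts after rmTGF-β1 were 406, 464 and 439, and those after both 336, 377 and 337. Libraries of each treatment lay below those with PBS, the combination lowest. The log2 fold change was -0.31 for rmCIRP (SE 0.06, adjusted p = 0.000364 in edgeR), -0.21 for rmTGF-β1 (SE 0.06, adjusted p = 0.0295), -0.32 for both against rmTGF-β1 (SE 0.06, adjusted p = 0.000318) and -0.23 for both against rmCIRP (SE 0.06, adjusted p = 0.0155). The call for rmTGF-β1 was lost without WT PBS library 2 (-0.18, adjusted p = 0.137), without rmTGF-β1 library 1 (-0.17, adjusted p = 0.127) and with no filter on low counts (adjusted p = 0.194). The call for both against rmCIRP was lost with no filter (0.1). In labelled TLR4-/- libraries it had 562, 539 and 565 with PBS and 469, 519.7 and 522 given rmCIRP. After rmTGF-β1 they were 441, 431 and 405, and after both agents 417, 429.9 and 401. All treated libraries were below those with PBS, and rmTGF-β1 passed the test with -0.38 (SE 0.06, adjusted p = 0.000108), as did both against rmCIRP with -0.28 (SE 0.06, adjusted p = 0.00176). These were -0.34 and -0.25 (adjusted p = 0.000708 and 0.00834) without the outlying pair.

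Igfbp6 was higher in libraries labelled TLR4-/- with rmCIRP (0.31, SE 0.06, adjusted p = 0.000173 in edgeR) and with both (0.26, SE 0.06, adjusted p = 0.00174, and 0.28, adjusted p = 0.00159, without the outlying pair). With PBS the log2 difference was 0.14 (SE 0.06, adjusted p = 0.0688), lost in DESeq2 (0.125), with no filter (0.24), without WT PBS library 1 (0.103) or 3 (0.168) and without labelled TLR4-/- library 1 (0.125) or 3 (0.114). Igfbp7, a secreted protein of vessels and stroma that binds IGFs weakly, moved little for its level. In WT it had 20965.5, 21153 and 22336 normalized counts with PBS, 25034, 23925 and 22979.9 with rmCIRP and 24467, 26581 and 22402.5 with rmTGF-β1. Each treated library was above each PBS library, with log2 fold changes of 0.15 (SE 0.06, adjusted p = 0.0554) and 0.18 (SE 0.06, adjusted p = 0.0673). The first was lost without PBS library 1 (adjusted p = 0.113) or 2 (0.107) or rmCIRP library 1 (0.207). The second was lost without PBS library 1 (0.135) or 2 (0.143) or rmTGF-β1 library 1 (0.141) or 2 (0.12, adjusted p = 0.375). In labelled TLR4-/- libraries it had 21692, 21401 and 21327 with PBS and 19201, 18911 and 20248 with rmCIRP, lower without overlap but not called. Both agents against rmCIRP was not called with all libraries and was called without the third library with both (0.16, adjusted p = 0.0321). The difference in the response to rmCIRP was -0.29 (SE 0.09, adjusted p = 0.018). Libraries labelled TLR4-/- were lower than WT with rmCIRP (-0.29, SE 0.06, adjusted p = 0.000339), rmTGF-β1 (-0.21, SE 0.06, adjusted p = 0.00834) and both (-0.28, SE 0.06, adjusted p = 0.000594). Without the outlying pair the last 2 were -0.21 and -0.19 (adjusted p = 0.0018 and 0.00265).

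Counted over the family, rmCIRP against PBS in WT cells changed 6 of the 9 tested genes, Igfbp3 and Igfbp7 up and Igf1, Igf1r, Igfbp4 and Igfbp6 down, where 43.9% of all genes tested were called. rmTGF-β1 against PBS changed 5 (1 up, 4 down) at a background of 12.4%. Both agents against rmTGF-β1 changed 6 (2 up, 4 down) at 42.2%, and both against rmCIRP 2 (both down) at 20.5%. Among libraries labelled TLR4-/-, rmCIRP changed 0 of 9 in edgeR, and 0% of all genes, while 1136 genes (6.99%) had an unadjusted p under 0.05 and DESeq2 called 33 genes, none of the family. rmTGF-β1 there changed 5, all down, at a background of 23.9%. Both against rmTGF-β1 changed 1 at 2.69%, and both against rmCIRP 4 (1 up, 3 down) at 32.8%. The treatments of a genotype share their control libraries, so these counts are not independent of each other.

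Between genotypes, 7 of 9 genes differed with PBS (2 higher and 5 lower in labelled TLR4-/- libraries) at a background of 47.1%. The count was 9 (4 higher, 5 lower) with rmCIRP at 59.5%, 7 (1 higher, 6 lower) with rmTGF-β1 at 46.5% and 8 (3 higher, 5 lower) with both at 52.8%. The median log2 difference of the 9 genes lay between -0.21 and -0.29 in the 4 treatments, and that of all genes tested between -0.02 and 0.00427. The response to rmCIRP differed between genotypes for 4 genes, Igf1 and Igf1r with a higher and Igfbp5 and Igfbp7 with a lower value in labelled TLR4-/- libraries, at 31.4%. The response to rmTGF-β1 differed for 0 in edgeR, at a background of 0.0861% of genes (14 called, 1686 with an unadjusted p under 0.05, and 163 called by DESeq2, none of the family). In WT cells a departure from additive log2 effects of the agents was called for 0 in edgeR, at 0.0492% (8 called, 917 with an unadjusted p under 0.05, and 37 called by DESeq2, none of the family), with values from -0.32 for Igfbp2 (95% interval -0.65 to 0.02) to 0.77 for Igfbp3 (-0.31 to 1.85).

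**Figure D3:**
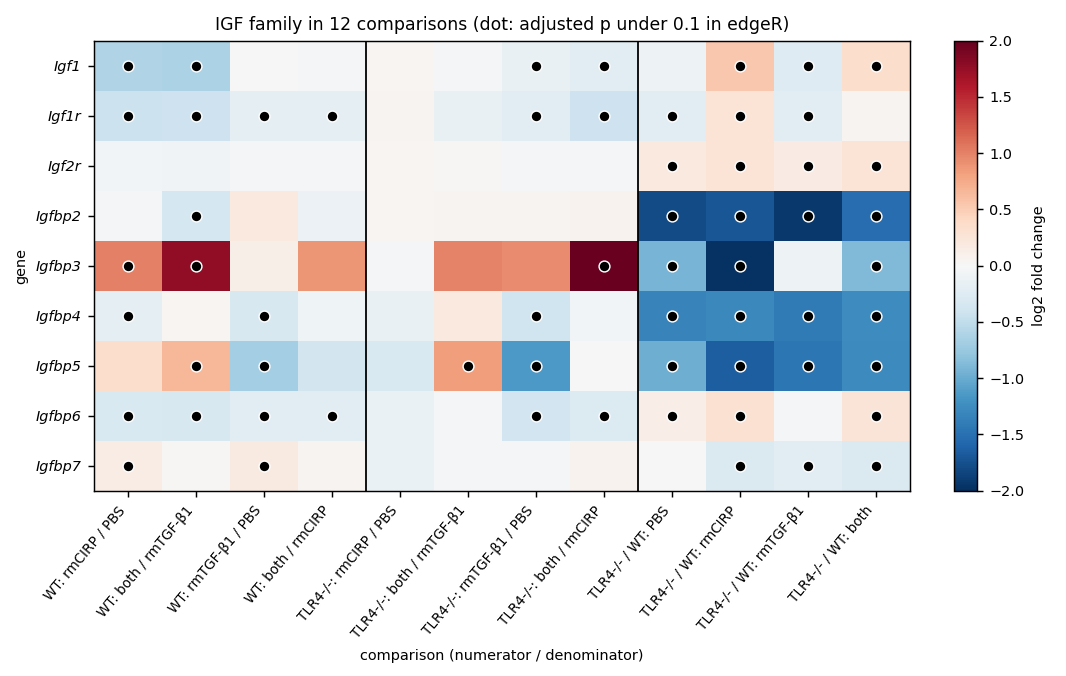
Log2 fold change (color) of the 9 tested genes in 12 comparisons, in WT cells, in cells labelled TLR4-/- and between genotypes, with a dot where the adjusted p was under 0.1. Igfbp2, Igfbp4 and Igfbp5 are lower in labelled TLR4-/- libraries in all 4 treatments, and the column for rmCIRP in those libraries has no dot.

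**Figure D4:**
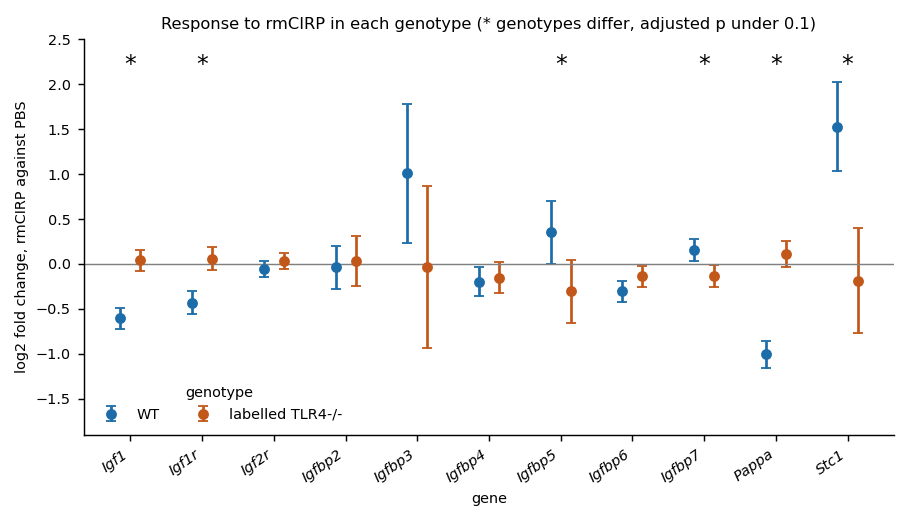
Log2 fold change of rmCIRP against PBS (points, with 95% intervals) in WT (blue) and labelled TLR4-/- (orange) cells for the 9 tested genes, Pappa and Stc1. Asterisks mark an adjusted p under 0.1 for the difference between genotypes: Igf1 and Igf1r stand at -0.60 and -0.43 in WT against 0.04 and 0.06, and Pappa and Stc1 move by -1.01 and 1.53 in WT.

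The rest of the pathway was read from a list of 41 genes, 35 of them tested. With rmCIRP in WT cells 21 passed the test, 7 up and 14 down (43.9% of all genes did), with a median log2 fold change of -0.00496 against -0.02 for all genes. By role these were 6 of 7 receptors and adaptors (2 up, 4 down), 7 of 13 genes of the PI3K-AKT branch (1 up, 6 down), 3 of 4 of the growth hormone axis (2 up, 1 down) and 2 of 5 proteases and partners. rmTGF-β1 changed 9 (1 up, 8 down) where 12.4% of all genes were called, both against rmTGF-β1 23 (11 up, 12 down) at 42.2%, and both against rmCIRP 17 (6 up, 11 down) at 20.5%. Libraries labelled TLR4-/- had counts of 0 for rmCIRP (0% of all genes), 14 for rmTGF-β1 (3 up, 11 down) at 23.9%, 2 for both against rmTGF-β1 (both up) at 2.69% and 15 for both against rmCIRP (6 up, 9 down) at 32.8%. The genotypes differed in 21 with PBS (6 higher, 15 lower in labelled TLR4-/- libraries) at 47.1% of all genes, and in 15 in their response to rmCIRP at 31.4%.

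Proteases free IGFs from their binding proteins. Pappa encodes PAPP-A, which cuts IGFBP4, and Stc1 encodes stanniocalcin-1, an inhibitor of PAPP-A. In WT libraries Pappa had 4444, 5087 and 4659.8 normalized counts with PBS and 2400.3, 2412 and 2274 given rmCIRP. rmTGF-β1 alone gave 6207, 5845 and 5726 and the combination 3409, 3239 and 3288. None of the 4 groups overlapped. Log2 fold changes were -1.01 for rmCIRP against PBS (SE 0.08, adjusted p = 3.93e-10 in edgeR), 0.32 for rmTGF-β1 (SE 0.07, adjusted p = 0.00746) and -0.84 for both against rmTGF-β1 (SE 0.07, adjusted p = 6.8e-09). Stc1 went the other way, from 843, 971 and 812 with PBS to 2621, 2139.97 and 2852 with rmCIRP. Its log2 fold change was 1.53 there (SE 0.25, adjusted p = 4.89e-05) and 1.32 for both against rmTGF-β1 (SE 0.26, adjusted p = 0.00043). Pappa and Stc1, picked after their values were seen, were the 2 called of 5 tested proteases and partners for rmCIRP in WT cells. No other gene of that list was called there. Pappa2 and Htra1 passed in some alternatives, such as no filter on low counts (-0.32 and -0.15, adjusted p = 0.0215 and 0.0271 in edgeR).

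Pappa in libraries labelled TLR4-/- had 5532, 5726 and 4320.5 normalized counts with PBS and 5302, 5649 and 5801 with rmCIRP, and Stc1 had 529.5, 426 and 391 with PBS and 411, 345 and 426 with rmCIRP. Neither was called there. Between genotypes the rmCIRP effect differed by 1.12 for Pappa (SE 0.10, adjusted p = 4.06e-08 in edgeR) and by -1.72 for Stc1 (SE 0.39, adjusted p = 0.00237). Stc1 reached 317, 552 and 1206 with both agents, the third library again highest, and its log2 fold change against rmTGF-β1 was 1.23 (SE 0.30, adjusted p = 0.0726), and 0.79 (adjusted p = 0.0533) without the third libraries. That call was lost with only the 6 libraries compared (adjusted p = 0.679), without rmTGF-β1 library 1 (0.369) or 2 (0.176), and without the third library with both (0.58, adjusted p = 0.404). Pappa2, a related protease that cuts IGFBP3 and IGFBP5, had 244, 371 and 289 normalized counts in WT and 69.2, 47.7 and 32.9 in labelled TLR4-/- libraries with PBS, a log2 difference of -2.59 (SE 0.22, adjusted p = 1.77e-09). Htra1, a serine protease that can cut IGFBP5, was higher in labelled TLR4-/- libraries, at 3221, 3076 and 2919.8 against 1828, 1707 and 1749.6 (0.80, SE 0.09, adjusted p = 9.61e-08).

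**Figure D5:**
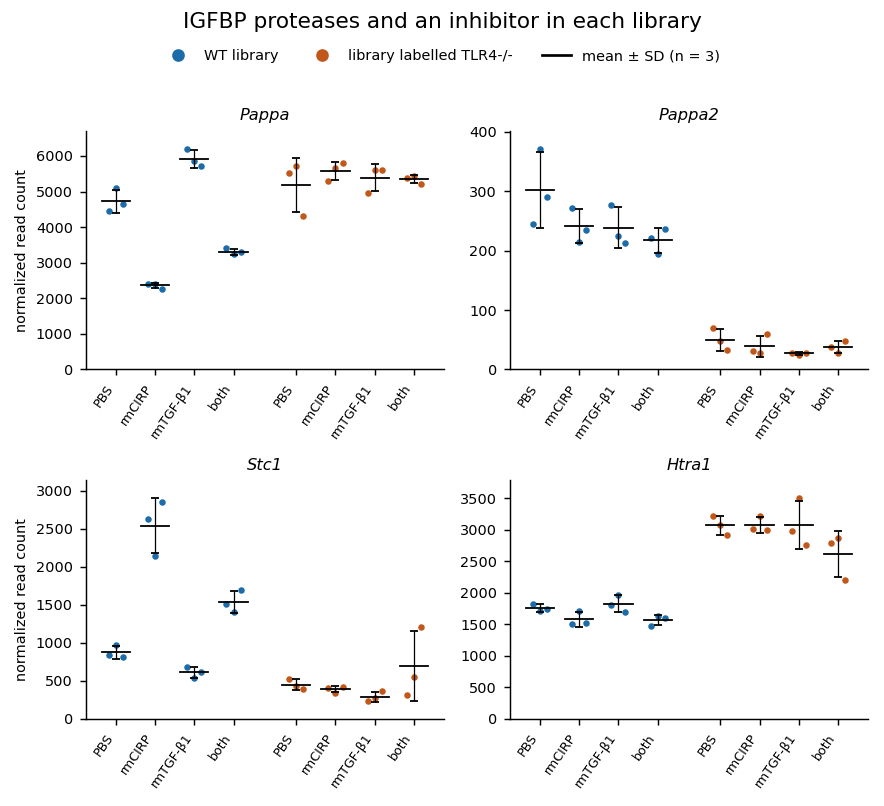
Normalized read counts of Pappa, Pappa2, Stc1 and Htra1 in every library, with WT in blue, labelled TLR4-/- in orange and black bars for the mean ± SD (n = 3). In WT libraries rmCIRP lowers Pappa and raises Stc1, and Pappa2 is below 70 in all libraries labelled TLR4-/-.

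The genes most like Igfbp2, Igfbp4 and Igfbp5, whose condition means spanned at least 1 on the log2 scale, were sought among those averaging 50 or more normalized counts. The measure was the root mean square difference of log2(normalized count + 1), each centered on its own mean, over the 24 libraries. Igfbp4 came nearest to Fst, the activin antagonist follistatin (0.14), Mgp, matrix Gla protein (0.15), and Frzb, a secreted WNT antagonist (0.15). Igfbp5 was followed by Pi15 (0.18), Pdgfra, a receptor that marks fibroblasts (0.21), and Plpp3 (0.23), and Igfbp2 by Cck (0.22), Dlx2 (0.22) and Rab39b (0.23). These distances describe the 24 libraries and carry no test.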

How the data were processed

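Total RNA of mouse lung fibroblasts in 8 conditions, 3 libraries each, had been sequenced from stranded libraries. The authors deposited whole-number read counts per gene and library, made with STAR2 on a mouse GENCODE annotation and HTSeq; the labels name build NCBIM37, and the strand option is not given in the sources used here. The 5 tally lines, 14.5 to 16.1% of reads per library, were left out, and 29853346 to 39664606 reads on 55291 gene names remained, of which 53292 matched the GENCODE M21 annotation used for exon lengths. The members and lists were chosen with earlier results of these data known.

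Counts were tested in edgeR 4.0.16 (R 4.3.3; TMM, filterByExpr, quasi-likelihood, 1 mean per condition, all 24 libraries), with Benjamini-Hochberg adjustment over 16258 genes and a call at an adjusted p under 0.1, the cut-off of the study. Levels are counts divided by DESeq2 (1.42.0) size factors, with the SD of 3 libraries. Alternatives were DESeq2, RLE normalization in place of TMM, no filter, a mean count of at least 10, the replicate number as a block, only the libraries compared, and each library left out in turn. Leaving out the 2 outlying libraries labelled TLR4-/- (library 3 with rmTGF-β1 and library 3 with both) was chosen after seeing the data. The rule for named genes took all 10 members, any gene of the IGF pathway list past the threshold (Pappa, Pappa2, Stc1 and Htra1 were picked from these after their values were seen), and the 3 genes most like each member whose condition means spanned at least 1 on the log2 scale. Those of Igfbp3 are not reported here. The procedure was run on simulated counts for rmCIRP against PBS in WT cells only. Those counts held no outlying library, and the planted changes were larger than many called here. The run therefore does not bear on small changes or on the outlying libraries. Promoter windows are from RefSeq (GRCm38.p6), a different build from the one the labels name, and were used for sequence only.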

Additional observations from a re-analysis of the deposited data

Results flagged for a closer look

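The effect of rmCIRP against PBS differed between genotypes by the test of the difference itself, in edgeR, for 4 of the 9 tested genes of the family, where 31.4% of all genes were called, and for Pappa and Stc1, which were picked after their values were seen. On the log2 scale, labelled TLR4-/- minus WT, the difference was 0.65 for Igf1, 0.49 for Igf1r and 1.12 for Pappa, which fell in WT cells. It was -0.66 for Igfbp5, -0.29 for Igfbp7 and -1.72 for Stc1, of which Igfbp7 and Stc1 rose in WT cells. In labelled TLR4-/- libraries none of these passed the test against PBS. Genotype, sex-linked transcripts and macrophage marker level differ together between these groups and cannot be told apart.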

How the results depend on the processing

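For 89 of the fold changes and differences printed for single genes, the alternatives gave 1170 values. Of these, 1078 kept their direction and their side of the threshold, 67 fell short of it, 25 newly passed it and 0 changed direction. Outside these 89, some uncalled values printed for libraries labelled TLR4-/- did change direction. They were Igfbp3 against WT with rmTGF-β1 (-0.74 to 0.14 over the alternatives), and both agents against rmCIRP for Igfbp5 (-0.37 to 0.15) and Igfbp7 (-0.00717 to 0.16). Of 64 called values of the family, 46 held in every alternative. The number of genes of the family called moved by more than 1.5 times as follows. With no filter on low counts it was 1 for rmCIRP in labelled TLR4-/- libraries, 4 for both agents against rmTGF-β1 there, 3 for the genotype difference in the rmTGF-β1 response and 3 for the interaction in WT cells. With only the libraries compared it was 4 for both against rmCIRP in WT and 0 for both against rmTGF-β1 in labelled TLR4-/- libraries. Without the 2 outlying libraries labelled TLR4-/-, chosen after seeing the data, it was 2 for both against rmTGF-β1 and 1 for the genotype difference in the rmTGF-β1 response. Leaving out each library in turn gave 1 to 5 for rmTGF-β1 in WT, 1 to 2 for both against rmCIRP in WT, and 3 to 6 for rmTGF-β1 and 0 to 3 for both against rmTGF-β1 in labelled TLR4-/- libraries. The cause was not tested.

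A fit blocked on replicate number called 4 genes instead of 2 for both against rmCIRP in WT. Libraries with the same number did not deviate together on average (mean r = 0.0120 over 84 pairs, from -0.117 to 0.369). Pairs with different numbers had a mean r of -0.00597, from -0.367 to 0.224. A mean over pairs cannot tell whether single pairs are linked. Values that passed under the block and not in the fit without it were those of Igfbp5 in WT cells for rmCIRP against PBS (0.34, adjusted p = 0.0661 in edgeR), and of Igfbp3 and Igfbp5 in WT for both against rmCIRP (0.91 and -0.37, adjusted p = 0.0633 and 0.0858). With no filter, uncalled values of Igf1r, Igfbp2, Igfbp3, Igfbp4, Igfbp5 and Igfbp7 also passed. Among them was Igfbp5 for rmCIRP in labelled TLR4-/- libraries (-0.31, adjusted p = 6.89e-08). Its SE was 0.05 with no filter and 0.18 with the filter, at a similar fold change.

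Over all genes, rmCIRP in labelled TLR4-/- libraries gave 0 calls, and 33 in DESeq2, 149 with no filter, 1 with the block and 29 with only the libraries compared. Both against rmTGF-β1 there gave 437, and 902, 1580, 810 and 0. The genotype difference in the rmTGF-β1 response gave 14, and 163 in DESeq2, 563 with no filter, 23 at a mean count of 10, 22 with the block and 190 without the outlying libraries. The interaction in WT gave 8, and 37 in DESeq2, 198 with no filter and 125 with only the libraries compared. Both against rmCIRP in labelled TLR4-/- libraries gave 5329, and 2710 with only the libraries compared. Igf2, at 0 to 3 reads, was below what this depth can compare.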
